A study of Mus musculus with 4 samples.

Results

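The genes described here are 10 endothelial and blood-brain barrier genes, namely Cldn5, Ocln, Tjp1, Pecam1, Cdh5, Flt1, Tek, Slc2a1, Mfsd2a and Abcb1a. They were chosen by gene name from the 29300 genes listed in the deposited count table. All 10 were found, and all 10 were among the 17144 genes that passed the filter on low counts. Hippocampal RNA was sequenced from 2 control mice and 2 surgery mice, all wild-type C57BL/6 males aged 7 to 8 months, with tissue taken on day 1 after the operation. The control mice, labelled sham, received isoflurane anesthesia and the analgesic tramadol but no operation. The surgery mice, the model of perioperative neurocognitive disorder (PND), received the same anesthesia and analgesic and an open fracture of the tibia fixed with an intramedullary nail. The study asked of this model whether surgery alters the permeability of the blood-brain barrier. The comparison below asks the corresponding question of the transcripts, that is, whether the RNA of genes that build the barrier differed between surgery and control mice.

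The blood-brain barrier is formed by the endothelial cells of brain capillaries, which are joined to each other by tight and adherens junctions and let little pass between or through the cells. Nutrients such as glucose cross by dedicated transporters in the endothelial membrane, and many lipophilic compounds are pumped back into the blood. Pericytes, a basement membrane and the endfeet of astrocytes surround the capillary, and growth factor and Wnt signals from these neighbours maintain the barrier.

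Surgery was accompanied by a rise of 3 of the 10 genes and a fall of 1. The tight junction genes Ocln and Tjp1 and the VEGF receptor gene Flt1 rose, with Ocln 1.54-fold, Tjp1 1.40-fold and Flt1 1.32-fold the control mean. Mfsd2a, which encodes a lipid transporter of brain endothelium, fell to 0.632-fold. Cldn5, Pecam1, Cdh5, Tek, Slc2a1 and Abcb1a did not pass the test. Across all genes tested, 13.1% passed as higher and 12.8% as lower, so the 1 lower gene of 10 is near the background share, and the 3 higher genes of 10 are above it on a small number of genes. Ocln and Mfsd2a also met the fold change threshold of the study (at least 1.5, or at most 0.67). Of all genes tested, 6.75% both passed as higher and met this threshold, and 2.25% did so as lower. With transcript length and GC content corrected for, none of the 10 genes passed (edgeR's quasi-likelihood test, 3 with an unadjusted p under 0.05), and of all genes 0.618% passed as higher and 1.16% as lower.

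The promoters of the 4 genes that passed are given here because they surround annotated starts of the genes whose transcripts rose or fell. Counts per gene do not show which start was used. Each runs from 250 bases before to 50 bases after a RefSeq transcription start on GRCm38.p6, 5′ to 3′ on the strand of the gene. Capitals mark matches, on either strand, to the GC box GGGCGG, to the TCF/LEF motif CTTTG and to the core of the hypoxia response element, ACGTG, which do not overlap each other in these windows. The table of promoters held 8 of the 10 genes, with none for Pecam1 and Cdh5, and Ocln had a pair of starts, of which the first is shown. All 4 genes lie on the minus strand.
Ocln, chr13:100552669-100552968: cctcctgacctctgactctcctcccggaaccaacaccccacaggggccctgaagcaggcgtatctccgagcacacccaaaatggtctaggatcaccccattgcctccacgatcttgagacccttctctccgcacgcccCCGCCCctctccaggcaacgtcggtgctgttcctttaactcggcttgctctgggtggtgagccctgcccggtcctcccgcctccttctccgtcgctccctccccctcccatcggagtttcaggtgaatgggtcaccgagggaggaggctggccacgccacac
Tjp1, chr7:65371195-65371494: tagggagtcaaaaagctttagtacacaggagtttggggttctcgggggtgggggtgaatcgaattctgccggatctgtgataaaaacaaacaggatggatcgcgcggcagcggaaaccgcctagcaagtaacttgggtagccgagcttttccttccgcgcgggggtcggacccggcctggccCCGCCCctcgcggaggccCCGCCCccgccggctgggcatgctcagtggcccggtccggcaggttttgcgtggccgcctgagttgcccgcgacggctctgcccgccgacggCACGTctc
Flt1, chr5:147725962-147726261: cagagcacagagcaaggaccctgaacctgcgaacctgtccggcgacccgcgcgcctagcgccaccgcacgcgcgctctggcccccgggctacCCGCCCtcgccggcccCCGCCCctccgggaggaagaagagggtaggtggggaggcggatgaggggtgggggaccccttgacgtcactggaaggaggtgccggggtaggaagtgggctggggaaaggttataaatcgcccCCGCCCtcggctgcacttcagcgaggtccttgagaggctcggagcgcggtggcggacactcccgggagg
Mfsd2a, chr4:122961139-122961438: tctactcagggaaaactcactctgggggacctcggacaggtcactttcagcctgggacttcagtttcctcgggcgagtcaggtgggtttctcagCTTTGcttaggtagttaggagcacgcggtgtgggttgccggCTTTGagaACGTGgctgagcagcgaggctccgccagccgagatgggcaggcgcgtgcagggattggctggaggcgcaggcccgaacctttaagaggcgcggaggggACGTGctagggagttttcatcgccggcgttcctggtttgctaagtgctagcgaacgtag
The GC content of these windows was 64% for Ocln, 65.3% for Tjp1, 70.7% for Flt1 and 60.3% for Mfsd2a, against a median of 52.7% over 32851 promoters. They held 17, 31, 29 and 22 CpG dinucleotides in the same order, against a median of 7. The GC box was found 1 time in the Ocln window, 2 times in that of Tjp1 and 3 times in that of Flt1, and no match stood in that of Mfsd2a, while 35.7% of all promoters hold at least 1. The Mfsd2a window held CTTTG 2 times and ACGTG 2 times, and the Tjp1 window held ACGTG 1 time. Of all promoters, 53.9% hold a match to CTTTG and 19.6% a match to ACGTG. A match describes the letters in the window and was not tested for binding. The Tjp1 start lies inside the span that the deposited table gives for the gene.

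The total count was 15763432 to 18573386 per mouse, and 24238 to 25324 genes were detected in each. The 10 genes had 168 to 2976 counts per mouse. Levels are given below as CPM, counts scaled to library size with TMM factors, and changes as the log2 fold change of surgery over control mice with its standard error. Each gene was tested by quasi-likelihood in edgeR, its p adjusted by Benjamini-Hochberg over all genes tested, and a gene passed at an adjusted p under 0.05. With 2 mice in each group, the p-values rest on the spread between these mice. They also rest on the spread of other genes, since edgeR shares dispersion estimates over all genes tested. In whole tissue, fewer endothelial cells and less RNA per endothelial cell cannot be told apart. Transcripts of the mitochondrial genome took 3.05% and 2.70% of the counts in control mice and 5.10% and 5.14% in surgery mice, a separation of the groups whose part in the results was not tested. All defining endothelial genes, Cldn5, Pecam1, Cdh5, Flt1 and Tek, were detected in each of the 4 mice, as were all 6 hippocampal neuron markers, of which Zbtb20 was the most abundant at 279 to 423 CPM.

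Fold changes of all genes moved with the GC content of their transcripts, with a Spearman rho of -0.64 over 17120 genes, which are not independent replicates. In eighths of the genes by GC content, the median log2 fold change went from 0.60 in the lowest eighth to -0.34 in the highest. The share that passed as higher went from 50.2% to 0.421%, and the share that passed as lower from 0.187% to 38.3%. The 10 genes spanned 44.1% (Ocln) to 60.5% (Cldn5), and their log2 fold changes followed the same order with a rho of -0.79 (n = 10 genes of the same libraries, given as a description). The value that the trend alone gave a gene of that length and GC content, and the log2 fold change with both corrected for, are therefore given beside each gene. The part of GC content in each result was not tested further.

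**Figure D1:**
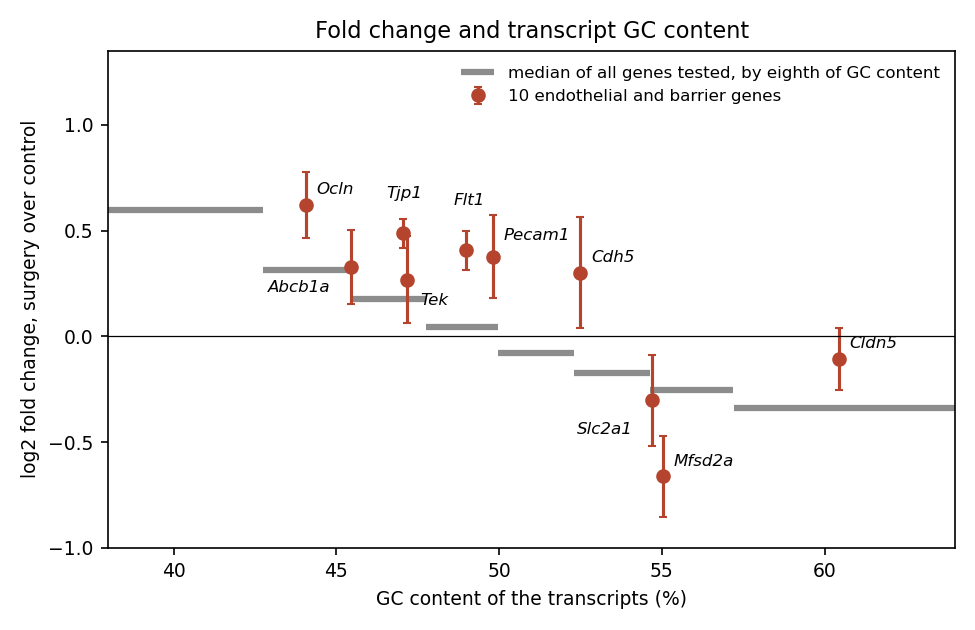
Log2 fold change of surgery over control mice (vertical axis) against the percent GC of the transcripts (horizontal axis) for the 10 genes, with points at the estimate and bars of 1 standard error. Grey lines are the medians of all genes tested in eighths of GC content, which step from 0.60 down to -0.34, and the genes of low GC content lie above 0 as those lines do, while Mfsd2a at 55.0% GC lies lowest.

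Tight junctions seal the cleft between neighbouring endothelial cells. Ocln encodes occludin, a membrane protein of the tight junction, and lies at chr13:100496507-100552718 of mm10, minus strand (ENSMUSG00000021638). It measured 9.75 and 11.2 CPM in control mice 1 and 2, and 14.7 and 17.6 CPM in surgery mice 1 and 2. Both surgery mice were above both control mice. The mean was 10.5 ± 1.03 CPM in control and 16.1 ± 2.07 CPM in surgery mice (SD, n = 2), and the log2 fold change was 0.62 (SE 0.16, edgeR adjusted p = 0.031). The gene had the lowest GC content of the 10, and the trend with length and GC content gave 0.34 for such a gene. After the correction its log2 fold change was 0.28 (SE 0.15, edgeR adjusted p = 0.33). The call also ended without control mouse 1 (edgeR adjusted p = 0.10), control mouse 2 (0.054) or surgery mouse 2 (0.12).

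Tjp1 encodes ZO-1, the cytoplasmic scaffold that ties occludin and the claudins to actin, and lies at chr7:65296165-65527781, minus strand (ENSMUSG00000030516). It measured 96.8 and 89.7 CPM in the control mice and 129 and 133 CPM in the surgery mice. The groups did not overlap, and the pairs of mice within each group lay close together. The means were 93.3 ± 5.03 and 130.7 ± 2.998 CPM (SD, n = 2), with a log2 fold change of 0.49 (SE 0.07, edgeR adjusted p = 0.0061). Tjp1 was the only one of the 4 called genes that passed without each of the 4 mice in turn, with values of 0.43 to 0.54. The trend gave 0.17, and the corrected log2 fold change was 0.31 (SE 0.07, edgeR adjusted p = 0.077). ZO-1 is not particular to endothelium, since junctions of other cell types also use it.

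Cldn5 encodes claudin-5, the main claudin of brain endothelium, and lies at chr16:18776847-18778260, plus strand (ENSMUSG00000041378). It measured 40.4 and 30.5 CPM in the control mice and 31.0 and 34.8 CPM in the surgery mice. Both surgery values lay between the control values. The log2 fold change was -0.11 (SE 0.15, edgeR adjusted p = 0.64), and without control mouse 1 it was 0.10. Cldn5 had the highest GC content of the 10 genes, where the trend gave -0.31, and its corrected value had the other sign, 0.20 (SE 0.16, edgeR adjusted p = 0.51). The 3 tight junction genes thus did not share a direction before the correction.

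Pecam1 and Cdh5 encode adhesion molecules at endothelial contacts. Pecam1, which encodes CD31, lies at chr11:106654217-106750628, minus strand (ENSMUSG00000020717), and measured 19.8 and 24.1 CPM in the control mice and 23.1 and 33.9 CPM in the surgery mice. Its groups overlapped, and the log2 fold change was 0.38 (SE 0.20, edgeR adjusted p = 0.21). Cdh5, which encodes VE-cadherin of the adherens junction, lies at chr8:104101625-104144511, plus strand (ENSMUSG00000031871), and measured 16.02 and 18.27 CPM in the control mice and 15.05 and 27.14 CPM in the surgery mice. Surgery mouse 1 was the lowest and surgery mouse 2 the highest of the 4, with a log2 fold change of 0.30 (SE 0.26, edgeR adjusted p = 0.44). Both results depended on a single mouse. Without surgery mouse 1, Pecam1 was at 0.61 (edgeR adjusted p = 0.024) and Cdh5 at 0.65 (0.018), and both passed. Without surgery mouse 2, Pecam1 was at 0.08 (0.79) and Cdh5 at -0.18 (0.52). The trend gave 0.02 for Pecam1 and -0.10 for Cdh5, and the corrected values were 0.35 for Pecam1 and 0.40 for Cdh5, where neither passed (edgeR adjusted p = 0.31 and 0.39).

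**Figure D2:**
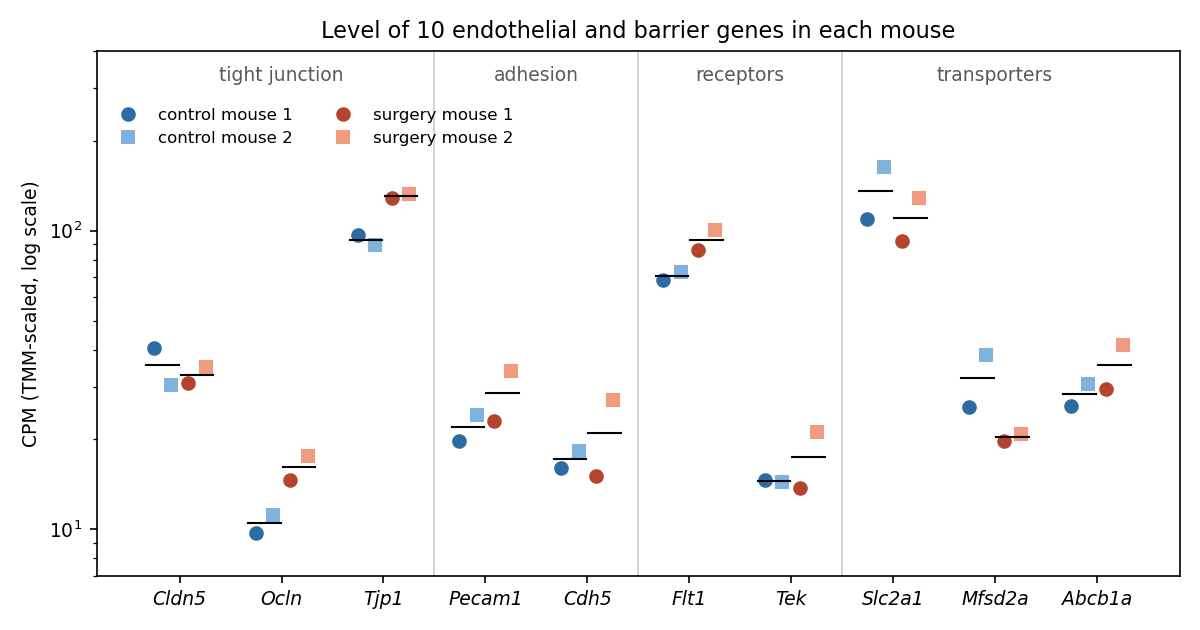
Level of each of the 10 genes in each of the 4 mice, in CPM after TMM scaling on a log axis, with 1 point per mouse. The surgery mice lie above both control mice for Ocln, Tjp1 and Flt1 and below both for Mfsd2a, and the groups overlap for the other 6 genes.

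Flt1 and Tek encode receptor tyrosine kinases of the vessel wall. Flt1 encodes VEGF receptor 1, which binds VEGF-A, VEGF-B and placental growth factor, and lies at chr5:147561604-147726011, minus strand (ENSMUSG00000029648). It measured 68.3 and 72.7 CPM in the control mice and 85.9 and 100.8 CPM in the surgery mice. The surgery mice were both higher, with means of 70.5 ± 3.10 and 93.3 ± 10.5 CPM (SD, n = 2) and a log2 fold change of 0.41 (SE 0.09, edgeR adjusted p = 0.024). The trend gave 0.06 for a gene such as Flt1, and the corrected value was 0.35 (SE 0.09, edgeR adjusted p = 0.092). The call ended without control mouse 1 (edgeR adjusted p = 0.073) or surgery mouse 2 (0.079).

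Tek encodes TIE2, the receptor of the angiopoietins, and lies at chr4:94739289-94874976, plus strand (ENSMUSG00000006386). It measured 14.7 and 14.4 CPM in the control mice and 13.8 and 21.2 CPM in the surgery mice. Surgery mouse 1 was below and surgery mouse 2 above both control mice, which differed from each other by less than either did from surgery mouse 1. The log2 fold change was 0.27 (SE 0.21, edgeR adjusted p = 0.38). The trend gave 0.17 for a gene such as Tek, and the corrected value was 0.10 (SE 0.19, edgeR adjusted p = 0.81). Uncorrected, it was 0.53 without surgery mouse 1, where it passed (edgeR adjusted p = 0.042), and -0.07 without surgery mouse 2 (0.82).

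The 3 transporter genes had different patterns. Mfsd2a encodes the carrier that brings docosahexaenoic acid into the brain as lysophosphatidylcholine and restrains vesicle transport across brain endothelium, and lies at chr4:122946850-122961188, minus strand (ENSMUSG00000028655). It measured 25.7 and 38.5 CPM in the control mice and 19.8 and 20.9 CPM in the surgery mice. Both surgery mice were below both control mice, and the control mice were farther apart than the surgery mice, with means of 32.1 ± 9.01 and 20.3 ± 0.781 CPM (SD, n = 2). The log2 fold change was -0.66 (SE 0.19, edgeR adjusted p = 0.047). The trend gave -0.19, and the corrected value was -0.47 (SE 0.18, edgeR adjusted p = 0.18). The call ended without control mouse 2 (log2 fold change -0.34, edgeR adjusted p = 0.15), surgery mouse 1 (0.074) or surgery mouse 2 (0.065).

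Slc2a1 encodes GLUT1, the glucose transporter of brain endothelium, which astrocytes also express, and lies at chr4:119108711-119137983, plus strand (ENSMUSG00000028645). It measured 109.6 and 162.8 CPM in the control mice and 91.99 and 128.8 CPM in the surgery mice. The groups overlapped, and mouse 2 was the higher in each. The log2 fold change was -0.30 (SE 0.22, edgeR adjusted p = 0.35). The trend gave -0.18, and the corrected value was -0.13 (edgeR adjusted p = 0.76). Without control mouse 2 it was 0.01 (edgeR adjusted p = 0.99). The choroid plexus markers, whose tissue also expresses glucose transporters, summed to 129 and 5468 CPM in the control mice and 2050 and 3477 CPM in the surgery mice, led by Ttr at 90.9 to 5078 CPM. Control mouse 2 was thus highest in choroid plexus markers as well as in Slc2a1 and Mfsd2a, and the part of these markers in either result was not tested.

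Abcb1a encodes P-glycoprotein, the efflux pump of brain capillaries, and lies at chr5:8660077-8748575, plus strand (ENSMUSG00000040584). It measured 25.9 and 30.6 CPM in the control mice and 29.4 and 41.5 CPM in the surgery mice. The groups overlapped, with a log2 fold change of 0.33 (SE 0.17, edgeR adjusted p = 0.22). The trend gave 0.26 for its GC content of 45.5%, and the corrected value was 0.06 (edgeR adjusted p = 0.88). Without surgery mouse 1 the log2 fold change was 0.54 and passed (edgeR adjusted p = 0.026), and without surgery mouse 2 it was 0.06 (0.82). The value is uncertain, since 17.1% of its transcript windows of 75 nt also occur in another gene, mainly its paralog Abcb1b, and 10.1% of its exon length overlaps a gene on the other strand, with the use of strand in counting not stated. Abcb1b itself measured 6.79 and 6.73 CPM in the control mice and 5.27 and 5.45 CPM in the surgery mice, with a log2 fold change of -0.33 (SE 0.18, edgeR adjusted p = 0.22).

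**Figure D3:**
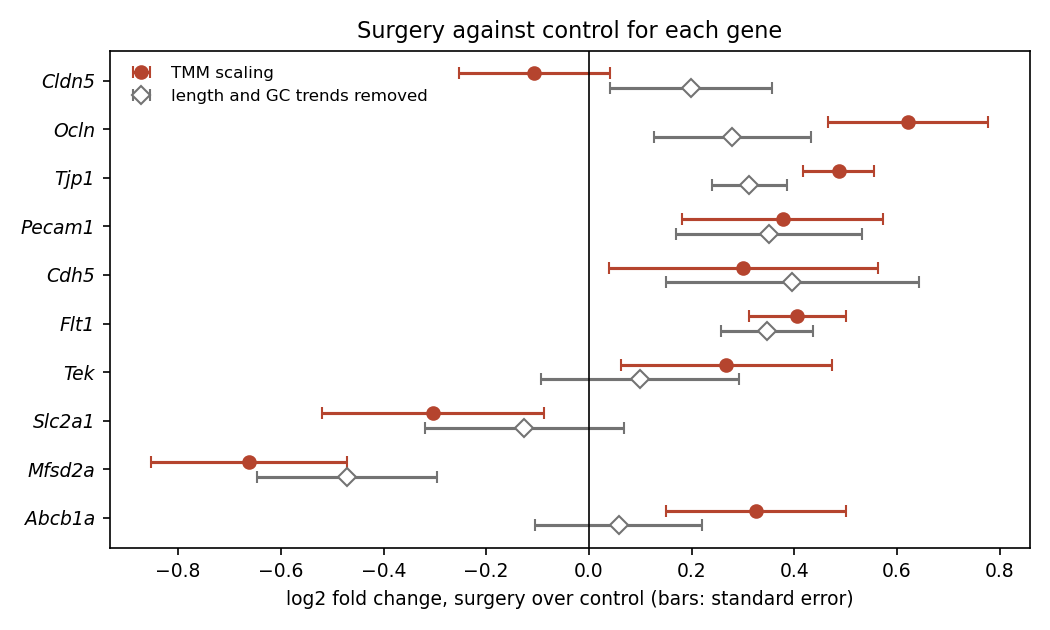
Log2 fold change of surgery over control mice for the 10 genes, with bars of 1 standard error, as tested and with transcript length and GC content corrected for. Correction moved Ocln from 0.62 to 0.28 and Cldn5 from -0.11 to 0.20, and Mfsd2a remained the lowest of the 10 at -0.47.

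Over the 10 genes the median log2 fold change was 0.31, against 0.01 over all genes tested. With the correction the medians were 0.24 and -0.03, and 8 of the 10 genes were above 0, compared with 7 before it. Both surgery mice were above both control mice for 3 of the 10 genes and below for 1, against 33.2% and 32.2% of all genes. All 10 genes were higher in surgery mouse 2 than in surgery mouse 1, and 7 of 10 were higher in control mouse 2 than in control mouse 1. The median of the 10 fell to -0.01 without surgery mouse 2. It was 0.51 without surgery mouse 1, 0.22 without control mouse 1 and 0.41 without control mouse 2. The summed level of the 10 genes was 427 and 493 CPM in the control mice and 453 and 559 CPM in the surgery mice. The groups overlapped, with a mean difference of 46.3 CPM (two-sided exact permutation test over the 4 mice, p = 0.667, where the smallest p that 2 against 2 mice allow is 0.333).

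Ratios within a mouse set the barrier genes against a defining endothelial gene and do not depend on the scaling of libraries. Mfsd2a over Pecam1 was 0.38 and 0.67 on the log2 scale in control animals, compared with -0.23 and -0.70 in surgery animals, a difference of -0.99 with no overlap. Slc2a1 over Pecam1 was 2.47 and 2.75 in control animals, compared with 1.99 and 1.93 in surgery animals, a difference of -0.65, also with no overlap. Abcb1a over Pecam1 differed by -0.05 and overlapped. Of the 9 ratios to Pecam1, 2 were wholly lower in surgery mice, 1 was wholly higher (Ocln, by 0.26) and 6 overlapped. Of all other genes tested, 39.3% had a ratio to Pecam1 that was wholly lower and 6.17% one that was wholly higher, so the lower ratios of Mfsd2a and Slc2a1 are not particular to these transporters. Of the 9 ratios to Cldn5, 3 were wholly higher, namely Ocln by 0.72, Tjp1 by 0.58 and Flt1 by 0.50, none was wholly lower and 6 overlapped. Of all other genes, 31.1% had a ratio to Cldn5 that was wholly higher, a share near that of the 9, and 10.7% one that was wholly lower. These ratios are a description, since 2 against 2 mice allow no exact p below 0.333, and the genes also differ in GC content.

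Per transcript length, the order of the 10 genes was led by the glucose transporter. The mean over the 4 mice, in reads scaled to library size and to the length of merged exons (RPKM), with the lowest and highest mouse, was 35.2 (26.2 to 46.4) for Slc2a1, 24.1 (21.6 to 28.5) for Cldn5, 14.3 (11.49 to 16.9998) for Tjp1 and 11.6 (8.78 to 17.1) for Mfsd2a. Flt1 followed at 6.07 (5.06 to 7.46), Abcb1a at 5.82 (4.74 to 7.57) and Cdh5 at 4.55 (3.58 to 6.46). Pecam1 was at 4.05 (3.18 to 5.44), Tek at 3.40 (2.93 to 4.49) and Ocln, the least abundant, at 3.15 (2.31 to 4.17). Neighbours in this order overlapped over the 4 mice apart from Cldn5 and Tjp1, and Mfsd2a and Flt1. The order between genes depends on the length used, since with the longest annotated transcript Flt1 was at 11.9 RPKM and Pecam1 at 7.33 RPKM.

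The wider barrier was described with 10 lists of other genes, which held 145 genes, of which 141 were tested. Of these, 11 rose and 10 fell, and 120 did not pass. Their median log2 fold change was 0.06. The shares were below the 13.1% and 12.8% of all genes. With the correction for length and GC content none passed (edgeR, 25 with an unadjusted p under 0.05). The numbers that passed in each direction depended on which mouse was left out.

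Ligands of the receptors above were among those that rose. Angpt1, which encodes the angiopoietin that activates TIE2, measured 2.21 and 3.06 CPM in the control mice and 6.40 and 7.58 CPM in the surgery mice, with a log2 fold change of 1.40 (SE 0.25, edgeR adjusted p = 0.010). The surgery mice were clearly apart, and the call held without each mouse in turn. Angpt1 has a low GC content of 39.1%, its corrected log2 fold change was 0.71 (edgeR adjusted p = 0.17), and 14.2% of its exon length overlaps a gene on the other strand. Vegfa, which encodes the main ligand of the VEGF receptors, measured 87.4 and 77.3 CPM in the control mice and 107.9 and 98.5 CPM in the surgery mice, with a log2 fold change of 0.33 (SE 0.09, edgeR adjusted p = 0.038). Its GC content is 54.7%, and the correction raised its value to 0.50 (edgeR adjusted p = 0.062), but the call ended without control mouse 2 (0.16) or surgery mouse 1 (0.12). Of the 13 genes of this list that were tested, 2 rose and 1 fell. The gene that fell, named after its values were seen, was Vegfb, another ligand of Flt1, at -0.32 (SE 0.08, edgeR adjusted p = 0.033), and it was near 0 when corrected (edgeR adjusted p = 0.998).

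Of 19 other junction genes, 1 rose and 2 fell. Jup, which encodes plakoglobin, fell from 52.5 and 50.1 CPM to 41.8 and 36.0 CPM, a log2 fold change of -0.40 (SE 0.10, edgeR adjusted p = 0.028), and did not pass without control mouse 1 (0.081), control mouse 2 (0.060) or surgery mouse 2 (0.11). Ctnnd1, which encodes the cadherin partner p120-catenin, rose by 0.82 (SE 0.22, edgeR adjusted p = 0.038), but 61.2% of its exon length is shared with other genes on its strand, so that its counts are uncertain, and the call ended without control mouse 2 (0.17) or surgery mouse 2 (0.12). Ctnnb1, which encodes beta-catenin of adherens junctions and of Wnt signaling, fell from 377 and 388 CPM to 305 and 311 CPM (log2 fold change -0.32, SE 0.06, edgeR adjusted p = 0.010) and passed without each mouse in turn. Of the 16 genes of Wnt signaling at the barrier, Ctnnb1 was the one that fell and Tspan12, a coreceptor gene of norrin signaling, the one that rose, by 0.58 (SE 0.14, edgeR adjusted p = 0.025). The corrected values were -0.16 for Jup, 0.70 for Ctnnd1, -0.29 for Ctnnb1 and 0.28 for Tspan12, and none passed. The call for Tspan12 ended without any of control mouse 1 (0.063), control mouse 2 (0.098) or surgery mouse 1 (0.097).

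Of 20 other transporters and receptors of the barrier, 2 rose and 3 fell. Slco1a4, which encodes an organic anion transporter of brain capillaries, went from 30.7 and 35.0 CPM in the control mice to 49.7 and 70.3 CPM in the surgery mice, a log2 fold change of 0.87 (SE 0.17, edgeR adjusted p = 0.014). Slc16a1, which encodes the monocarboxylate transporter MCT1, went from 25.4 and 25.9 CPM to 49.1 and 40.8 CPM, a log2 fold change of 0.81 (SE 0.11, edgeR adjusted p = 0.0060). Both calls held without each mouse in turn, and both genes are of low GC content, with corrected values of 0.26 and 0.40 that did not pass. The 3 that fell, named after their values were seen, were Lrp1, the clearance receptor gene, at -0.58, Slc7a5, the large amino acid transporter gene, at -0.48, and Abcc1, an efflux pump gene, at -0.37. Their corrected values were -0.31, -0.25 and -0.33 in the same order, and none passed.

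Genes of the cells and matrix around the capillary passed in both directions, and no list was tested as a set. Of 14 pericyte and smooth muscle genes tested, 1 rose and 1 fell. Rgs5, a pericyte gene, rose from 71.6 and 66.1 CPM to 105.0 and 122.9 CPM (log2 fold change 0.73, SE 0.09, edgeR adjusted p = 0.0053), while Cspg4, which encodes NG2, fell by 0.44 on the log2 scale (SE 0.10, edgeR adjusted p = 0.025). The corrected values were 0.24 for Rgs5 (edgeR adjusted p = 0.14) and -0.16 for Cspg4 (0.38). The call for Rgs5 held without each mouse in turn, and that for Cspg4 ended without control mouse 2 (0.087) or surgery mouse 1 (0.066). Of 9 astrocyte endfoot genes, 2 rose and 1 fell. Aqp4, the water channel gene of the endfoot, rose from 86.0 and 70.1 CPM to 132.8 and 126.9 CPM (log2 fold change 0.73, SE 0.10, edgeR adjusted p = 0.0061), and its corrected value was 0.58 (edgeR adjusted p = 0.052). Gja1, named after its values were seen, was the other that rose, by 0.36 before and 0.08 after the correction (edgeR adjusted p = 0.0096 and 0.56).

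Of 16 basement membrane genes, none rose and 1 fell, which was Agrn, the gene of the heparan sulfate proteoglycan agrin, from 393 and 382 CPM to 296 and 294 CPM (log2 fold change -0.40, SE 0.06, edgeR adjusted p = 0.0060). Its call held without each mouse in turn, and its corrected value was -0.15 (edgeR adjusted p = 0.25). Of 8 genes of caveolae and transcytosis, 1 rose, Cav2 by 0.44 (SE 0.11, edgeR adjusted p = 0.027). Its corrected value had the other sign, -0.09 (edgeR adjusted p = 0.68), and its call ended without any 1 of the 4 mice (edgeR adjusted p from 0.051 to 0.11). Of 20 genes of endothelial identity, 1 rose and 1 fell. These were Itm2a at 0.51 (edgeR adjusted p = 0.028) and at 0.02 when corrected, which did not pass without control mouse 1 (0.085) or surgery mouse 2 (0.10), and Bsg, which encodes basigin, at -0.42 (edgeR adjusted p = 0.045) and at -0.21 when corrected, which did not pass without control mouse 2 (0.11), surgery mouse 1 (0.077) or surgery mouse 2 (0.0503). All 20 genes of this list were higher in surgery mouse 2 than in surgery mouse 1, as the 10 genes above were.

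Among the vascular lists, the surgery mice were farthest apart in genes of leukocyte adhesion and endothelial activation. None of the 7 genes tested passed (edgeR, with 0 at an unadjusted p under 0.05, and 0 by DESeq2 and limma-voom). Vwf, which encodes von Willebrand factor and was the most abundant of the list, measured 49.4 and 66.1 CPM in the control mice and 33.5 and 116.5 CPM in the surgery mice, the lowest and the highest of the 4. Icam1 and Vcam1, adhesion molecules for leukocytes chosen after their values were seen, had the same highest mouse. Icam1 measured 4.18 and 4.27 CPM in the control mice and 3.01 and 10.4 CPM in the surgery mice, and Vcam1 14.9 and 25.5 CPM in the control mice and 22.5 and 48.4 CPM in the surgery mice. All 9 genes of the list were highest in surgery mouse 2 and 8 of the 9 were lowest in surgery mouse 1. With 2 surgery mice, a difference between the animals and one between their tissue samples cannot be told apart.

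**Figure D4:**
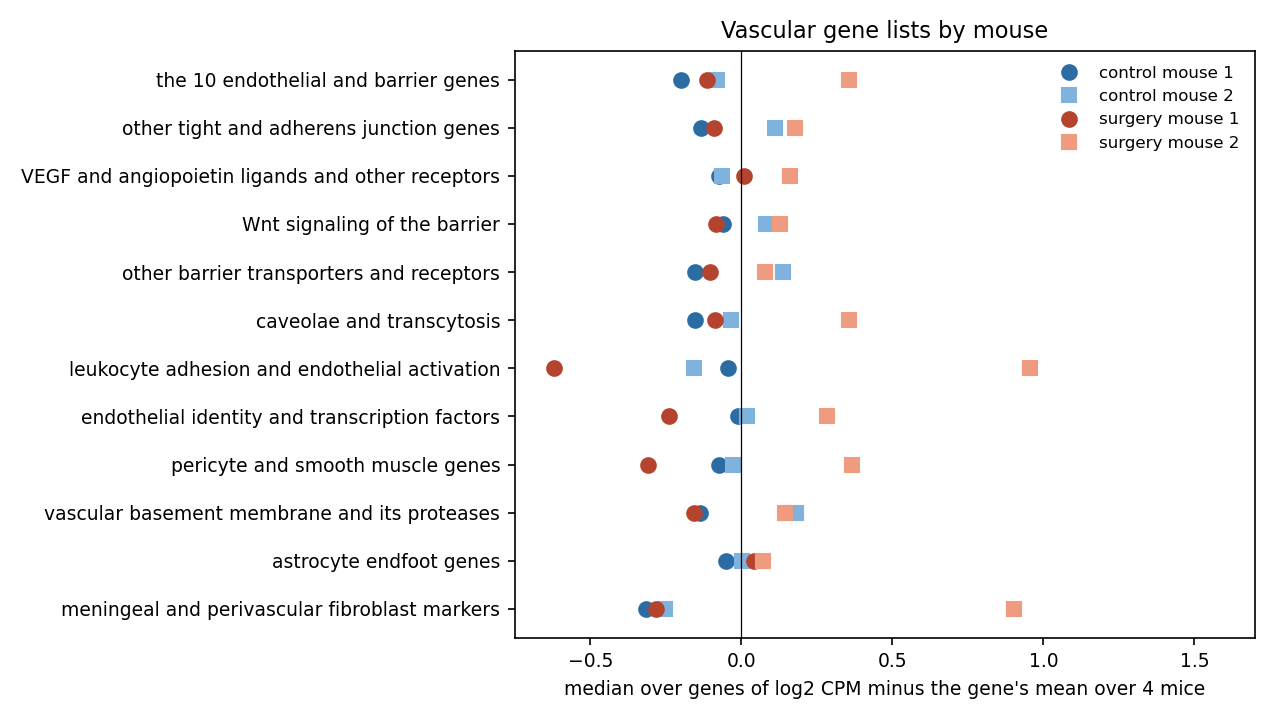
Median over the genes of each list of log2 CPM minus the mean of the gene over the 4 mice, with 1 point per mouse, for the 10 endothelial and barrier genes, 10 other vascular lists and the fibroblast markers. Surgery mouse 2 lies apart from surgery mouse 1 by most, of the lists plotted, in leukocyte adhesion and endothelial activation (0.96 against -0.62) and in the fibroblast markers. The median of the endfoot genes differs little between the mice, at -0.05 and 0.0007 in control and 0.04 and 0.07 in surgery mice. Of these 9 genes, 2 rose and 1 fell, which the median does not show.

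The vascular genes whose levels over the 4 mice were most like the median profile of the 10 genes were Tie1, Cd93 and Abcg2, at Euclidean distances of 0.15, 0.19 and 0.20 in centred log2 CPM (4 mice). The median profile was -0.20 and -0.08 in control animals and -0.11 and 0.36 in surgery animals. Each of the 3 genes was highest in surgery mouse 2 and none passed the test between groups (edgeR adjusted p = 0.54, 0.24 and 0.088).

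Markers of other cells were measured in the same libraries. Meningeal and perivascular fibroblast markers, led by Igf2, summed to 148 and 329 CPM in control and 187 and 456 CPM in surgery mice. Igf2 itself measured 33.1 and 199 CPM in control and 66.8 and 245 CPM in surgery mice. Most of the difference between the control sums was thus Igf2, which shares 62.8% of its exon length with another gene on its strand. The median of the 6 markers in centred log2 CPM was -0.32 and -0.25 in control and -0.28 and 0.90 in surgery mice. Mouse 2 was the higher for 4 of the 6 in the control and all 6 in the surgery mice. For the 10 barrier genes, it was the higher for 7 in the control and all 10 in the surgery mice. Oligodendrocyte markers, led by Mbp, went the other way, at 6183 and 5329 CPM in the control and 6084 and 3927 CPM in the surgery mice. Neutrophil markers, led by Lcn2, summed to 17.2 and 21.1 CPM in the control mice and to 3.32 and 17.006 CPM in the surgery mice, and red blood cell markers, led by Hbb-bs, to 8.53, 5.09, 11.2 and 7.29 CPM in the same order. Microglia markers, led by Csf1r, summed to 246 to 256 CPM in all 4 mice, and 1 of 6 rose, which was P2ry12 (named after its values were seen) at 0.84 (edgeR adjusted p = 0.0046) and at 0.18 when corrected (0.37). The part of these cells in the barrier gene results was not tested. Over all 52 marker genes tested, 5 rose and 6 fell, including 2 of 7 neuron markers that fell (Snap25, the most abundant, did not pass), 3 hippocampal neuron markers that rose and 1 that fell of 6, and 1 astrocyte marker (Slc1a2) that rose and 2 that fell of 6. None of the choroid plexus, fibroblast, oligodendrocyte or red blood cell markers passed (edgeR, with 2 fibroblast markers and no other at an unadjusted p under 0.05, and 1 fibroblast marker passing as higher by DESeq2), and of the 5 neutrophil markers tested 1 passed as lower.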

How the data were processed

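Hippocampal poly(A) RNA of 4 mice was sequenced as paired-end reads, and the authors mapped the reads to mm10 with HISAT. The deposited values are raw counts of reads per gene, 1 column per mouse. The submitters' processing notes name HISAT2 2.1.0, Bowtie2 2.2.3, TopHat2 and HTSeq 0.6.0 without their roles, and the use of strand in counting is not stated, so reads of overlapping genes on opposite strands may be mixed. Fold changes and p-values of the authors' own comparison, held in the same table, were not used.

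Counts were tested in R 4.3.3 with edgeR 4.0.16 (filterByExpr with a minimum count of 10, TMM, glmQLFit and glmQLFTest, group as the only term), with Benjamini-Hochberg adjustment over 17144 genes. limma 3.58.1 (voom) and DESeq2 1.42.0 were alternatives. For the correction, mgcv 1.9.3 (basis size 8) smoothed each library against the length and GC content of transcripts, and the smooths served as offsets. Lengths, GC contents, overlaps and shared windows came from GENCODE M21, and promoters from RefSeq. The scripts were tested on simulated data. Replicate libraries differed by more than sampling noise (chi-square per degree of freedom of 13.2 in the control and 8.35 in the surgery mice), and totals of 15763432 to 18573386 counts limit the precision of low genes.

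The members and the lists were chosen with earlier results of these data known. Beside the 10 genes, those named from each vascular list were up to 4 genes past the adjusted p and fold change thresholds with a mean of at least 1 CPM, ordered by the size of the log2 fold change, filled up to 2 with genes past the adjusted p alone, or the most abundant gene where none passed. Of each marker list the most abundant gene was named, and from the vascular lists the 3 nearest to the median profile of the 10 genes, and Abcb1b as the paralog of Abcb1a. Other normalizations, filters, tests, thresholds, gene lengths and offsets, the replicate number as a block, thinned counts and the omission of each mouse were tried as alternatives. A gene that this rule names in the astrocyte endfoot list is not reported here.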

Additional observations from a re-analysis of the deposited data

How the results depend on the processing

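The direction of Ocln, Tjp1, Flt1 and Mfsd2a was the same under every alternative run. Under the correction for length and GC content no member passed as higher (0) or lower (0), with Ocln at 0.28, Tjp1 at 0.31, Flt1 at 0.35 and Mfsd2a at -0.47, and Cldn5 changed sign to 0.20. Of the vascular list genes 0 rose and 0 fell, and of the marker genes 0 rose and 0 fell, in keeping with the smaller number of calls over all genes (106 higher and 199 lower, against 2249 and 2201). With no filter on low counts Ocln (0.61), Flt1 (0.40) and Mfsd2a (-0.67) did not pass, which left 1 higher and 0 lower member, 5 higher and 3 lower vascular genes and 3 higher marker genes. Over all 29300 genes, 1315 passed as higher and 1350 as lower without the filter. Mfsd2a also did not pass with library totals only (-0.61), limma-voom (-0.64) or nuclear protein-coding genes only (-0.64), each of which left 0 lower members. DESeq2 called 8 marker genes higher, and 1829 of all 17144 genes. At an adjusted p under 0.01, 1 member was higher and 0 lower. With the longest annotated transcript as the length, Tjp1 was at 15.9, Pecam1 at 7.33 and Flt1 at 11.9 RPKM. The cause of these shifts was not tested.

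With the replicate number as a block, Pecam1 (0.36) and Slc2a1 (-0.30) passed as well, with 2 lower members, 19 higher vascular genes and 9 higher marker genes. The calls over all 17144 genes also rose with the block, to 2653 higher and 2626 lower, against 2249 and 2201 without it. The block together with the correction for length and GC content left 2 higher members, Tjp1 at 0.31 (edgeR adjusted p = 0.014) and Flt1 at 0.34 (0.014), and 1 lower, Mfsd2a at -0.45 (0.047). It gave Ocln at 0.28 (not passed), Cldn5 at 0.21, 6 higher and 4 lower vascular genes and 13 lower marker genes. Over all 17144 genes, 761 passed as higher and 1596 as lower in this setting, against 106 and 199 with the correction alone. Nothing in the labels says that a number marks a shared litter or day, and with only 2 pairs the correlation of same-numbered deviations (0.22 over all genes, -0.0047 over the vascular genes) does not establish pairing, so the unblocked values are those reported.

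Leaving out each mouse in turn moved the log2 fold change of Cldn5 over -0.30 to 0.10, Ocln over 0.49 to 0.73, Tjp1 over 0.43 to 0.54, Pecam1 over 0.079 to 0.61, Cdh5 over -0.18 to 0.65, Flt1 over 0.29 to 0.50, Tek over -0.070 to 0.53, Slc2a1 over -0.57 to 0.0064, Mfsd2a over -0.93 to -0.34 and Abcb1a over 0.060 to 0.54. Members passing as higher ranged from 1 to 7 and as lower from 0 to 1, vascular genes from 9 to 31 and from 3 to 12, and marker genes from 6 to 9 and from 6 to 12. The median of the members ranged from -0.0052 to 0.51, at its lowest without surgery mouse 2. With 1 mouse left in a group, that mouse is assumed to vary like those of the other group. Depth limits the low genes most, Ocln among them with 168 to 297 counts per mouse.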
